A study of Homo sapiens with 12 samples.

Results

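Cyclosporine A (CSA) was compared with tacrolimus (TAC) in differentiated human podocytes, using 3 RNA-seq libraries of each, 6 of the 12 libraries of the series. All 19784 genes that passed a count filter were compared, of 62262 in the table. The cells were a conditionally immortalized human podocyte line that carries a temperature-sensitive SV40 T gene. They were grown at the permissive temperature and then kept at the non-permissive one, at which the T antigen is inactive, so that they differentiated. Cultures then received CSA at 100 nM, TAC at 100 nM, voclosporin (VCS) at 100 nM or DMSO, each for 24 h, with 3 libraries per group. VCS and DMSO values are given here to place the CSA and TAC levels, and their libraries also entered the fit behind the p-values. All groups share the cell line, the T gene and the differentiation step, so the data describe 1 line in culture and no kidney tissue. The labels do not say whether replicates came from separate cultures, so p-values measure only the spread between these libraries.

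Podocytes are the epithelial cells that wrap the capillaries of the glomerulus and carry its slit diaphragm. CSA is a cyclic peptide that binds cyclophilins, chiefly PPIA. TAC is a macrolide that binds FK506-binding proteins, chiefly FKBP1A (FKBP12). Both drug complexes inhibit calcineurin, the calcium-dependent phosphatase that dephosphorylates NFAT transcription factors and so lets them enter the nucleus. VCS is an analog of CSA. Apart from its role as a TAC receptor, FKBP1A is known to bind type I receptors of the TGF-beta and bone morphogenetic protein (BMP) family. BMP ligands act through these receptors on SMAD1, SMAD5 and SMAD9, which with SMAD4 induce ID genes and the feedback inhibitors SMAD6 and SMAD7, whereas TGF-beta acts mainly through SMAD2 and SMAD3.

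Total counts were 34193951, 31009131 and 36077072 in CSA replicates 1, 2 and 3, against 33275968, 33106700 and 32118395 in the TAC replicates. Between 28783 and 29107 genes had counts with CSA and between 28951 and 29296 with TAC. Mitochondrial transcripts took 5.82 to 9.68% of counts with CSA and 6.41 to 10.1% with TAC, and in both groups replicate 3 had the largest share. Of the markers that define podocytes, NPHS1 (nephrin), a slit-diaphragm protein, had 4 to 11 counts with CSA and 8 to 11 with TAC. WT1 had 20 to 37 counts with CSA and 29 to 50 with TAC. ACTN4, an actin crosslinker that other cells share, had 46657 to 57806 counts with CSA and 45085 to 48384 with TAC. PAX8 and CLDN1, markers of the parietal epithelium of the glomerulus, had 11043 to 13683 and 12402 to 18147 counts with CSA, against 8440 to 10440 and 11488 to 13251 with TAC. Nephrin was thus nearly absent. Other listed podocyte genes were expressed, SYNPO at 1704 to 2321 counts with CSA and 1620 to 2019 with TAC and CD2AP at 3250 to 3832 with CSA and 3466 to 4500 with TAC, and the parietal marker PAX2 had 382 to 536 counts with CSA and 372 to 449 with TAC. The summed level of the 12 listed parietal epithelium genes was 3925 ± 28.0 CPM with CSA and 3681 ± 39.7 CPM with TAC (SD, n = 3 each; exact permutation p = 0.1, the smallest that 3 against 3 libraries allow). CPM of single genes are library-size-scaled counts, after TMM normalization. Summed CPM of marker lists, here and below, were scaled by total count alone, without TMM.

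The smallest p by edgeR belonged to ID1, ATOH8 and ID3, BMP-induced transcription regulators that were lower with CSA. CGB8, SAMD11 and IL11 came next and were also lower. SMAD9, ID2 and SMAD6, BMP-induced as well, were lower but ranked behind these. GDF5, a ligand of the BMP family, was higher with CSA, as were TGFB1, RELB and VCAM1. In edgeR's quasi-likelihood test, with replicate number as a block and Benjamini-Hochberg adjustment over all genes, 65 of 19784 genes passed an adjusted p of 0.05 (0.329%). Of these, 34 were higher (0.172% of genes) and 31 lower (0.157%) with CSA. At an unadjusted p under 0.05 there were 3145 genes (15.9%). DESeq2 was fitted to the same 19784 genes and gave an adjusted p for 9811 of them. It called 361 of the 9811 higher (3.68%) and 181 lower (1.84%). Below, the genes that DESeq2 tested means these 9811, and list members without its adjusted p were counted as not called. All 3 CSA libraries lay above all 3 TAC libraries in 1354 genes (6.84%) and below them in 1334 (6.74%). Most called differences were small: the median size was 0.45 log2 units among the 34 higher genes and 0.56 among the 31 lower genes, and only 1 higher and 4 lower genes passed 2-fold. The 4 lower ones were SAMD11, LINC02593, ENSG00000269706 and ID1, and the higher one was ENSG00000196656. As with any bulk measurement, fewer cells of a type and less RNA per cell cannot be told apart.

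**Figure D1:**
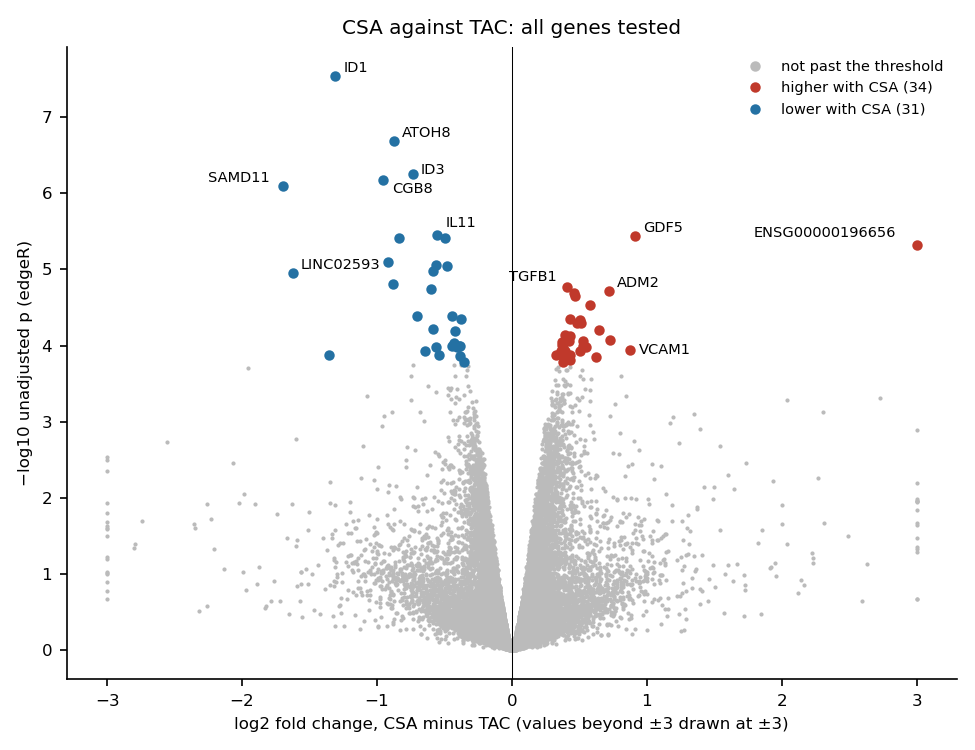
Log2 fold change of CSA minus TAC (x axis; genes beyond ±3 are drawn at ±3) against the −log10 of edgeR's unadjusted p (y axis) for all 19784 genes. Red points are the 34 genes called higher and blue points the 31 called lower with CSA; ID1 has the smallest p.

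The count of 65 depended on the libraries and on the block. Without replicate number in the fit 6 genes passed (0.0303%): ID1, ID3, SAMD11 and LINC02593 were lower and GDF5 and ENSG00000196656 higher with CSA. Leaving out CSA replicate 3 gave 252 genes and leaving out CSA replicate 1 gave 120, but 6 remained past the threshold without CSA replicate 2. Without TAC replicates 1, 2 and 3 in turn the counts were 18, 5 and 9. Omitting a library of the groups not compared also moved it, to 24, 29 and 56 without VCS replicates 1, 2 and 3, and 20, 20 and 16 without DMSO replicates 1, 2 and 3. ID1, ATOH8, ID3, CGB8 and SAMD11 passed in all 12 of these fits. When only the CSA and TAC libraries were fitted, 1 gene passed, ENSG00000196656, with or without the block, and no BMP-induced gene did. In that fit with the block ID1 differed by −1.31 (adjusted p = 0.0584), ATOH8 by −0.87 (adjusted p = 0.0592), ID3 by −0.74 (adjusted p = 0.185) and GDF5 by 0.90 (adjusted p = 0.191), so the calls of these genes rest on a spread estimated over all 4 groups.

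Promoter sequences are shown for the 4 BMP-induced genes with the smallest p, since these genes moved together. They are the 250 bases before the RefSeq start of each gene, on GRCh38.p14. Capitals mark GGCGCC or GGAGCC on either strand (GGAGCC reads GGCTCC on the other), 2 GC-rich elements of the kind that BMP-activated SMADs bind; matches of the 2 elements cannot overlap each other.
ID1 promoter, chr20:31605039-31605288 (plus strand): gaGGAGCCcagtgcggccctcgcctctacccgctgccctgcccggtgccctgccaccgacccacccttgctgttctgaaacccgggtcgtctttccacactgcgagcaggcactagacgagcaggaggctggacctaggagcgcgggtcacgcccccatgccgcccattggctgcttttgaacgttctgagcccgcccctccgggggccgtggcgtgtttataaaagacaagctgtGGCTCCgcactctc
ATOH8 promoter, chr2:85753741-85753990 (plus strand): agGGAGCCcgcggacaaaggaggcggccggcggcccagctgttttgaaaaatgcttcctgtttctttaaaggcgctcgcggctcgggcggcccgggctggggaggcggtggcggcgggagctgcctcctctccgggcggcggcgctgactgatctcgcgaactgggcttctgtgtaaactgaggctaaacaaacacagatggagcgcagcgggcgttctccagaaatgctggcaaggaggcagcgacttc
ID3 promoter, chr1:23559502-23559751 (minus strand): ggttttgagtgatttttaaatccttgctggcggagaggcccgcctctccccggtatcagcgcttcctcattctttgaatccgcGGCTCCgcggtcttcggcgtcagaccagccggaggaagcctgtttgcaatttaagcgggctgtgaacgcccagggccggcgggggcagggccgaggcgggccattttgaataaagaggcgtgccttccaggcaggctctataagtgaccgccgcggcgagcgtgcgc
SMAD9 promoter, chr13:36920239-36920488 (minus strand): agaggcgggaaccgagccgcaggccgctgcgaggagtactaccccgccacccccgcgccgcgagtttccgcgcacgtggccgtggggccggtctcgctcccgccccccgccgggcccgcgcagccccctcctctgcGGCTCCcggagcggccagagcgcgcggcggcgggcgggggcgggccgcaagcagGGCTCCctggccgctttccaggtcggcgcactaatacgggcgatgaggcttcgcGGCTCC
GGAGCC stood in each of these 4 windows, 2 times in ID1, 1 time in ATOH8 and ID3, and 3 times in SMAD9, and GGCGCC in none of them. Among the other called members, SMAD6 had 3 matches of GGAGCC, ID2 none, and SMAD7, for which RefSeq lists several starts, had 1 match in 1 of 3 windows. Over all 35116 RefSeq promoters of the same length, 30.6% held GGAGCC and 16.4% held GGCGCC. These windows are GC-rich: ID1 66%, ATOH8 64.4%, ID3 62% and SMAD9 78.4%, against a median of 58% for all promoters. The matches describe letters in these windows and are no evidence of binding.

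ID1, ID2 and ID3 encode inhibitors of DNA binding, helix-loop-helix proteins that hold back differentiation factors by dimerizing with E proteins. ID1 (ENSG00000125968, chr20:31605283-31606515, plus strand, GRCh38 with GENCODE 29) had 48.3, 36.9 and 27.5 CPM in CSA replicates 1 to 3, against 93.2, 93.5 and 86.7 CPM with TAC. Its mean was 40.1 ± 6.70 CPM with VCS and 39.6 ± 5.64 CPM with DMSO (SD, n = 3 each). The TAC libraries stood alone at about 90 CPM, and the CSA, VCS and DMSO means differed by less than their spread. The CSA minus TAC difference was −1.31 log2 units (SE 0.10, 95% interval −1.54 to −1.08, edgeR adjusted p = 0.000568). ID1 differed by −0.09 (SE 0.10, adjusted p = 0.738) between CSA and DMSO and by 1.22 (SE 0.10, adjusted p = 0.000525) between TAC and DMSO.

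ID3 (ENSG00000117318, chr1:23557918-23559794, minus strand) had 87.5, 85.2 and 78.0 CPM with CSA, against 131, 134 and 153 CPM with TAC. Its lowest TAC library lay well above its highest CSA library, and the difference was −0.74 (SE 0.08, adjusted p = 0.00319). ID2 had 13.1, 12.3 and 8.11 CPM with CSA and 20.2, 21.4 and 20.3 CPM with TAC, a difference of −0.92 (SE 0.12, adjusted p = 0.0136). Here the groups did not overlap either, and CSA replicate 3 was the lowest library. The fourth family member, ID4, named after its values were seen, differed by −1.07 (SE 0.23) and missed the threshold (adjusted p = 0.0767).

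ATOH8, a basic helix-loop-helix factor, is known as a BMP target in endothelium and other cells. It lies at chr2:85751344-85788066 (plus strand) and had 17.9, 15.1 and 14.5 CPM with CSA, against 33.6, 30.1 and 23.7 CPM with TAC. Every TAC library exceeded every CSA library, and the VCS and DMSO means, 14.1 ± 3.28 and 14.9 ± 1.97 CPM, were at the CSA level. The CSA minus TAC difference was −0.87 (SE 0.08, adjusted p = 0.00203). ATOH8 was 0.96 (SE 0.08, adjusted p = 0.000525) higher with TAC than with DMSO, and 0.08 (SE 0.09, adjusted p = 0.709) separated CSA from DMSO.

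Among the SMADs, SMAD9 transmits BMP signals, and SMAD6 and SMAD7 inhibit the receptors in a feedback loop. SMAD9 had 6.85, 6.40 and 6.14 CPM with CSA and 12.8, 12.3 and 9.74 CPM with TAC, a difference of −0.84 (SE 0.11, adjusted p = 0.00863). SMAD6 had 10.6, 10.99 and 9.82 CPM with CSA and 16.8, 15.4 and 15.4 CPM with TAC (−0.60, SE 0.09, adjusted p = 0.0196). For SMAD7 the levels were 46.0, 41.8 and 38.0 CPM with CSA and 57.4, 55.6 and 50.8 CPM with TAC, the smallest difference of the called members (−0.38, SE 0.07, adjusted p = 0.0441). In none of these 3 genes did the CSA and TAC libraries overlap. The calls of SMAD9, ID2, SMAD6 and SMAD7 held in 9, 10, 8 and 2 of the 12 fits that left out 1 library, and all 4 were lost without the block.

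**Figure D2:**
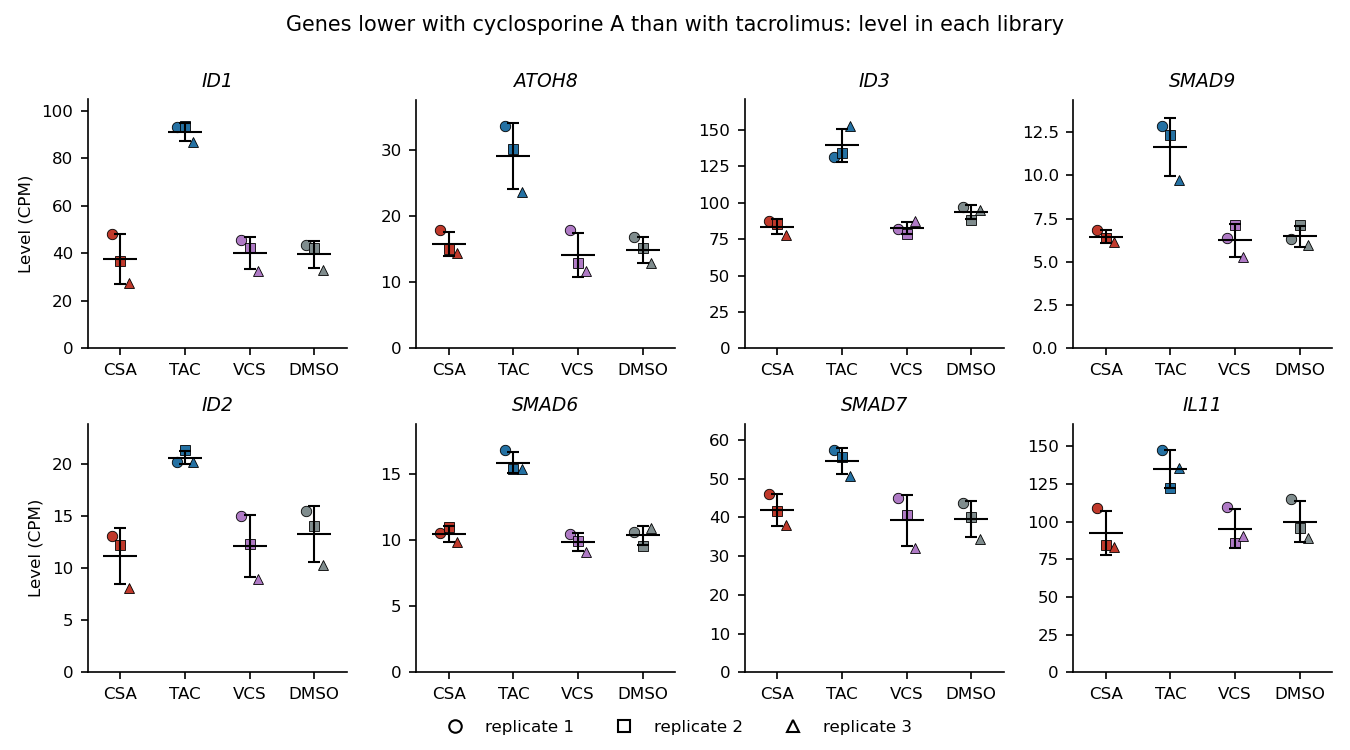
Level in CPM (y axis, from 0) of 8 genes lower with CSA than with TAC, in each library of the CSA, TAC, VCS and DMSO groups; symbols give the replicate number, the long bar the mean and the whiskers the SD of 3 libraries. In all 8 panels the 3 TAC libraries lie above the 3 CSA libraries, and for ID1 the CSA, VCS and DMSO means lie between 37.6 and 40.1 CPM.

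In the list of 21 BMP-SMAD induced genes, 18 were tested and 7 of these were lower with CSA (38.9%, against 0.157% lower among all genes), while none was higher; DESeq2 called 6 of the 18, all lower (1.84% of the genes it tested). Of the 18, 13 had a difference below 0 and 5 above, and the median was −0.46, against −0.0004 over all genes. HES1, a repressor that Notch also induces, and NOG, the BMP antagonist noggin, differed by −0.54 (SE 0.14, adjusted p = 0.117) and −0.61 (SE 0.17, adjusted p = 0.124); both were named after their values were seen. Apart from these and ID4, the members without a call, such as MSX1, HEY1, BAMBI and GREM1, differed by between −0.35 and 0.30. The list was chosen with earlier results of these data known, so its counts are a description. Over the other settings its median ran from −0.56 to −0.35.

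The 30 tested BMP and activin ligands, receptors, SMADs and antagonists held a single call by edgeR, GDF5 (0.172% of all genes were called higher). DESeq2 called 3 of the 30 higher (3.68% of the genes it tested), and the median difference was 0.12. GDF5, a growth and differentiation factor that signals through BMP receptors, lies at chr20:35433347-35454746 (minus strand). It had 140, 124 and 161 CPM with CSA and 80.7, 80.8 and 65.4 CPM with TAC, with 134 ± 14.0 CPM with VCS and 105 ± 4.56 CPM with DMSO (SD, n = 3 each). The CSA and TAC groups did not overlap, and the DMSO mean lay between them. The difference was 0.91 (SE 0.11, adjusted p = 0.00863), and it was 0.43 (SE 0.11, adjusted p = 0.373) for CSA minus DMSO and −0.48 (SE 0.11, adjusted p = 0.152) for TAC minus DMSO. Of the other ligands and antagonists, NBL1, a BMP antagonist, differed by 0.40 (SE 0.08, adjusted p = 0.0545), and BMP1, the procollagen C-proteinase, by 0.25 (SE 0.07, adjusted p = 0.14). GDF15, a stress-induced ligand, differed by 0.21 (SE 0.07, adjusted p = 0.187). None of the listed receptors passed edgeR's threshold: BMPR1A, BMPR2 and ACVR1 differed by between −0.16 and 0.18, ACVR1B and ACVRL1 by 0.24 (SE 0.10) and 0.22 (SE 0.37), and BMPR1B by 0.41 (SE 0.32). SMAD1, SMAD4 and SMAD5 lay between −0.20 and −0.07 without a call, whereas SMAD9, counted in the list of induced genes, was lower.

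TGFB1, the prototype ligand of the TGF-beta branch (chr19:41301587-41353911, minus strand), was higher with CSA. It had 73.1, 66.6 and 83.2 CPM with CSA and 57.8, 50.5 and 59.3 CPM with TAC, a difference of 0.41 (SE 0.06, adjusted p = 0.0196). All CSA libraries exceeded all TAC libraries, and the means were 59.0 ± 4.66 CPM with VCS and 64.2 ± 5.68 CPM with DMSO. After a trend on GC content was taken off, the difference was 0.24 (adjusted p = 0.239). Of 13 tested TGF-beta ligands, receptors and SMADs, 11 had a difference above 0, with a median of 0.14, which turned to −0.02 without the 4 libraries numbered 3. TGFB1 was edgeR's only call among them (0.172% of all genes were called higher), and DESeq2 called 2 higher (3.68% of the genes it tested). An edgeR unadjusted p under 0.05 was seen in 6 of the 13 (15.9% of all genes). LTBP3 and LTBP4, which hold latent TGF-beta in the matrix, differed by 0.25 (SE 0.07, adjusted p = 0.131) and 0.26 (SE 0.09, adjusted p = 0.189).

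Among 24 TGF-beta target genes, edgeR called 3 lower with CSA (0.157% of all genes were) and none higher. DESeq2 called 7 lower (1.84% of the genes it tested), and the median was −0.03. SKIL, a SMAD co-repressor that TGF-beta itself induces, had 50.3, 41.0 and 44.0 CPM with CSA and 70.7, 55.1 and 63.5 CPM with TAC (−0.48, SE 0.07, adjusted p = 0.0136). The secreted binder of insulin-like growth factors IGFBP3 had 555, 555 and 808 CPM with CSA and 767, 802 and 1021 CPM with TAC (−0.44, SE 0.07, adjusted p = 0.0335). For IGFBP3 the groups overlapped, with CSA replicate 3 in the TAC range, and without the block its adjusted p was 0.634. The third was SMAD7.

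IL11, ANKRD1, BIRC2, BDKRB1, KCNA7 and F3 were also lower with CSA. IL11, a cytokine of the IL-6 family that TGF-beta induces in fibroblasts, had 109, 84.5 and 83.2 CPM with CSA and 147, 122 and 136 CPM with TAC (−0.56, SE 0.07, adjusted p = 0.00863). ANKRD1, a mechanosensitive YAP target, had 266, 270 and 260 CPM with CSA and 356, 382 and 445 CPM with TAC (−0.56, SE 0.08, adjusted p = 0.0136). In both genes the groups were separate. BIRC2, an inhibitor of apoptosis that restrains non-canonical NF-kB signaling, averaged 65.6 ± 7.77 CPM with CSA and 92.3 ± 9.30 CPM with TAC (−0.49, SE 0.06, adjusted p = 0.00863). BDKRB1, the inducible bradykinin receptor, averaged 13.9 ± 2.17 CPM with CSA and 20.8 ± 1.99 CPM with TAC (−0.59, SE 0.08, adjusted p = 0.0146). KCNA7, a voltage-gated potassium channel, averaged 4.70 ± 1.49 CPM with CSA and 8.56 ± 2.38 CPM with TAC (−0.88, SE 0.13, adjusted p = 0.0193). F3, which encodes tissue factor, the starter of coagulation, differed by −0.44 (SE 0.08, adjusted p = 0.0441).

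CGB8, 1 of the gene copies for the beta subunit of chorionic gonadotropin, and a pair of neighbouring genes on chromosome 1 were also lower. CGB8 (chr19:49047638-49049106, minus strand) had 6.53, 8.92 and 7.85 CPM with CSA and 11.7, 17.0 and 16.6 CPM with TAC, a difference of −0.95 (SE 0.10, adjusted p = 0.00319). The copies are nearly identical, and the authors' counting could divide reads among them. In raw counts over 3 libraries CGB8 had 773 with CSA and 1501 with TAC, CGB2 44 and 134, CGB3 79 and 139, CGB5 60 and 142, and CGB7 1638 and 1841. CGB1 went the other way, with 13 and 9. The CGB3 count with TAC came mostly from replicate 3 (36, 23 and 80 in replicates 1 to 3). ENSG00000269706, an unprocessed pseudogene beside CGB8 (chr19:49050217-49050846), had 27, 21 and 26 counts with CSA and 65, 65 and 59 with TAC (−1.36, SE 0.25, adjusted p = 0.0446).

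SAMD11 (chr1:923928-944581, plus strand), which encodes a SAM-domain protein, had 2.15, 1.31 and 1.80 CPM with CSA and 5.56, 5.79 and 5.62 CPM with TAC (−1.70, SE 0.18, adjusted p = 0.00319). LINC02593, a long non-coding RNA on the minus strand at chr1:916865-921016, had 0.941, 0.987 and 0.985 CPM with CSA and 3.05, 2.85 and 3.10 CPM with TAC (−1.62, SE 0.23, adjusted p = 0.0146). TAC libraries were well above CSA libraries in both. SAMD11 overlaps NOC2L on the opposite strand, and whether the counting used strand is not stated, so reads from both genes cannot be told apart there.

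BNIP3, a mitophagy receptor induced by hypoxia, was lower too (−0.38, SE 0.07, adjusted p = 0.0446). The remaining genes among the 31 were named after their values were seen. They include EDN1, the vasoconstrictor endothelin-1 (−0.39, SE 0.07, adjusted p = 0.0441), the growth factor FGF2 (−0.41, SE 0.07, adjusted p = 0.0441) and SNAI1, a repressor of epithelial genes (−0.64, SE 0.12, adjusted p = 0.0441). QPRT, an enzyme of NAD synthesis from tryptophan, differed by −0.38 (SE 0.06, adjusted p = 0.0335), and PDE4D, a cAMP phosphodiesterase, by −0.58 (SE 0.10, adjusted p = 0.0397). ELL2, SERTAD4, COMMD10, SPDL1, LINC01554 and ENSG00000227706 differed by between −0.70 and −0.35. Of the 31 lower genes, 28 had no overlap between groups, against 13.6% of all genes, as their small p requires of most.

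ADM2, PLAT, SHISA2 and IL4I1 were among the genes higher with CSA. ADM2, a vasoactive peptide of the adrenomedullin family that ATF4 is known to induce, had 14.6, 18.4 and 19.1 CPM with CSA and 10.4, 11.4 and 9.83 CPM with TAC (0.72, SE 0.11, adjusted p = 0.0201). It averaged 14.1 ± 0.866 CPM with VCS and 11.2 ± 0.320 CPM with DMSO, so the CSA mean was the highest, with CSA and VCS libraries overlapping. PLAT, the tissue plasminogen activator, had 158, 136 and 168 CPM with CSA and 120, 102 and 103 CPM with TAC (0.51, SE 0.08, adjusted p = 0.0335); here TAC was the lowest of the 4 groups. SHISA2, which retains FGF and Wnt receptors in the endoplasmic reticulum, averaged 55.1 ± 4.81 CPM with CSA and 40.3 ± 5.82 CPM with TAC (0.46, SE 0.07, adjusted p = 0.0202). IL4I1, a secreted L-amino acid oxidase, averaged 37.4 ± 4.98 CPM with CSA and 25.1 ± 5.97 CPM with TAC (0.58, SE 0.09, adjusted p = 0.0264), and it shares its locus with ATF5 on the opposite strand.

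The NF-kB subunit RELB had 25.6, 33.1 and 27.2 CPM with CSA and 19.0, 23.9 and 19.3 CPM with TAC (0.47, SE 0.07, adjusted p = 0.0211). VCAM1, an adhesion molecule for leukocytes that parietal epithelium also carries, had 16.8, 17.2 and 29.7 CPM with CSA and 12.8, 10.1 and 11.1 CPM with TAC (0.88, SE 0.16, adjusted p = 0.0441). CSA replicate 3 was the high library of VCAM1, but the other CSA libraries also exceeded every TAC library. In the list of 33 NF-kB and inflammatory genes these 2 were the only calls by edgeR, and DESeq2 called 7 higher. Over all genes edgeR called 0.172% higher, and DESeq2 3.68% of those it tested. Of the 33 members, 28 had a difference above 0 and 5 below, and the median was 0.20 (0.17 to 0.26 over the other settings). NFKB2 differed by 0.28 (SE 0.07, adjusted p = 0.0982) and IL1B by 0.58 (SE 0.14, adjusted p = 0.0946). Against DMSO the list's median was −0.02 for CSA and −0.30 for TAC. The listed leukocyte markers summed to 84.4 ± 8.56 CPM with CSA and 72.8 ± 10.6 CPM with TAC (exact permutation p = 0.2). Leukocyte markers differed widely in level. CD3E had at most 3 counts in a CSA or TAC library. PTPRC had 3 to 9 counts with CSA and 6 to 7 with TAC, and TYROBP had 1 to 5 and 3 to 7. CD14 had 49 to 66 counts with CSA and 51 to 54 with TAC. CD68 had 2104 to 3056 counts with CSA and 1772 to 2527 with TAC. The part of these markers in the differences was not tested.

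SDF2L1, a cochaperone of the endoplasmic reticulum, had 29.2, 30.4 and 32.3 CPM with CSA and 19.6, 20.7 and 24.3 CPM with TAC (0.51, SE 0.08, adjusted p = 0.0348). It was edgeR's only call among 26 genes of the unfolded protein response (0.172% of all genes were called higher). DESeq2 called 2 of the 26 higher (3.68% of the genes it tested). A difference above 0 was seen in 25 of them (median 0.17, or 0.07 to 0.26 over the other settings). CRELD2 and MANF, secreted proteins induced by stress of this organelle, differed by 0.26 (SE 0.06, adjusted p = 0.105) and 0.28 (SE 0.07, adjusted p = 0.109). Of 36 ATF4 targets, 30 had a difference above 0 (median 0.16) and edgeR called none. An unadjusted p under 0.05 was seen in 15 of them (15.9% of all genes), and DESeq2 called 3 higher (3.68% of the genes it tested). The amino acid transporters SLC1A5 and SLC3A2 differed by 0.34 (SE 0.08, adjusted p = 0.0946) and 0.28 (SE 0.07, adjusted p = 0.106), and TRIB3, a pseudokinase of this response, by 0.28 (SE 0.07, adjusted p = 0.111). Against DMSO the ATF4 list had a median of 0.24 with CSA and 0.09 with TAC.

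**Figure D3:**
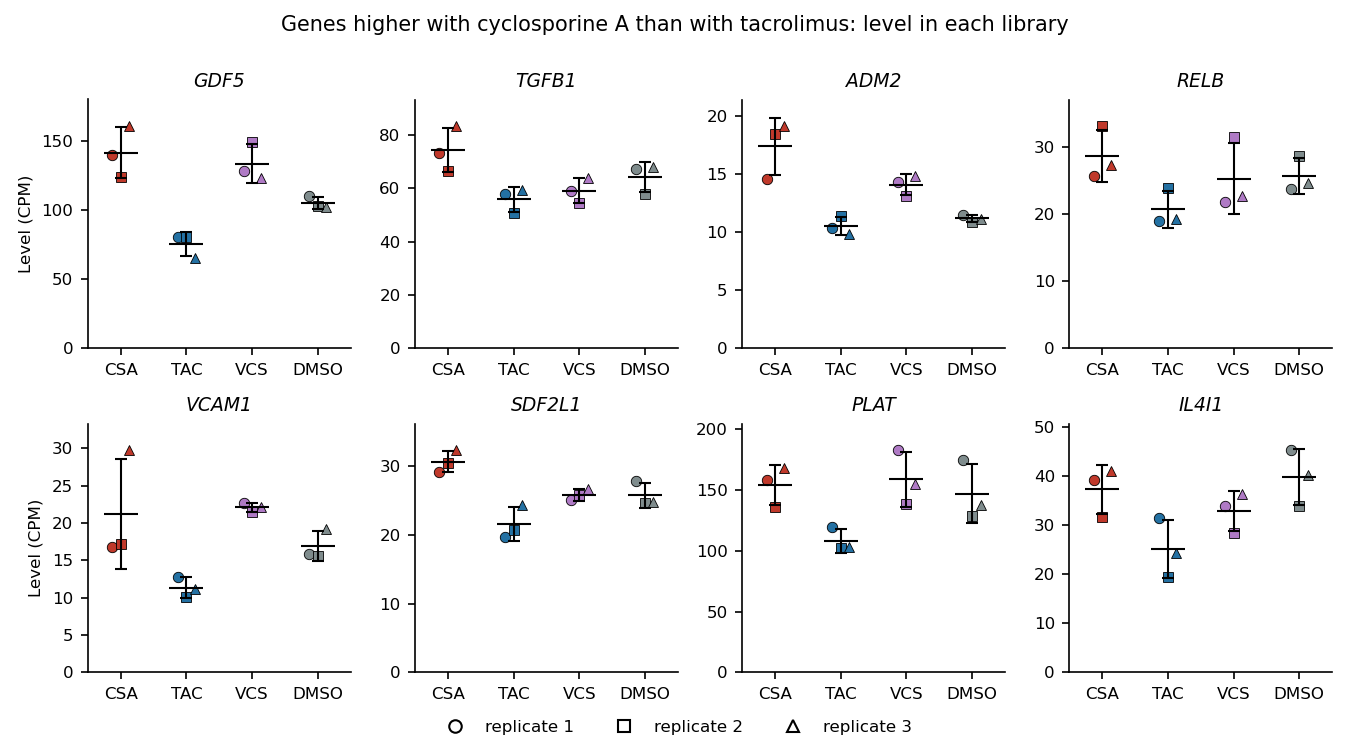
Level in CPM (y axis, from 0) of 8 genes higher with CSA than with TAC, in each library of the 4 groups; symbols give the replicate number, the long bar the mean and the whiskers the SD of 3 libraries. GDF5 lies at 124 to 161 CPM with CSA and at 65.4 to 80.8 CPM with TAC, and in VCAM1 CSA replicate 3 stands apart at 29.7 CPM.

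Further called genes that the rule named were GPR137, a lysosomal membrane protein (0.43, SE 0.07), SYNGR2, a vesicle protein (0.49, SE 0.08), ZNF628 (0.65, SE 0.11), DDRGK1, a UFMylation adaptor (0.39, SE 0.07), PISD, the mitochondrial phosphatidylserine decarboxylase (0.43, SE 0.07), MINDY1, a deubiquitinase (0.73, SE 0.13), and NAGLU, a lysosomal enzyme of heparan sulfate breakdown (0.42, SE 0.07). Their adjusted p ran from 0.0335 to 0.0441. Named after their values were seen, the matrix protease MMP15 (0.55, SE 0.10), ADAMTSL4 (0.53, SE 0.09), the ligand WNT7B (0.38, SE 0.07), the sterol reductase TM7SF2 (0.51, SE 0.09), the lysosomal sulfamidase SGSH (0.39, SE 0.07) and the kinase TNK2 (0.36, SE 0.07) were also higher, each with an adjusted p of 0.0441. Others were PLPP2, G0S2, THY1-AS1, ARHGAP22, PDZK1IP1, MIEF2, SBK2, SCARF2, HSD3B7 and PGPEP1, which differed by 0.33 to 0.62. Of the 34 higher genes, 30 had no overlap between groups, against the same 13.6%, and the choice by p again fixes most of this.

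The genes higher with CSA moved with base composition. Transcript GC content had a median of 60.7% among the 34 higher genes and 51.4% among the 31 lower genes, against 48.5% over all tested genes. Over 5 bins of GC content with equal gene numbers, from the lowest to the highest, the median difference of all genes was −0.13, −0.07, 0.00, 0.07 and 0.15 log2 units. Of the 34 higher genes 24 lay in the highest bin, where 8 of the 31 lower genes also lay. Within a library, the rank correlation of a gene's level (relative to its mean over libraries) with GC content was 0.165, 0.32 and 0.138 in the CSA replicates and −0.212, −0.215 and −0.169 in the TAC replicates (18900 genes of 1 library each; exact permutation p = 0.1 for CSA against TAC, the smallest possible). It lay between −0.107 and 0.016 with VCS and between 0.001 and 0.07 with DMSO. CSA and TAC libraries thus stood on opposite sides of the others in this measure. When the GC trend of each library was taken off, an alternative added after the data were seen, 29 genes passed (0.147%), of which 5 were higher and 24 lower with CSA. Of the original calls, 5 of the 34 higher genes remained (GDF5, VCAM1, PLAT, SHISA2 and ENSG00000196656) and 20 of the 31 lower ones. The ID1 difference was −1.42 after this step (adjusted p = 0.000382), the ID3 difference −0.84 (adjusted p = 0.000722) and the GDF5 difference 0.80 (adjusted p = 0.0162). The median of the BMP-SMAD list was −0.53 with 7 members still called lower. TGFB1, RELB (0.28, adjusted p = 0.279), ADM2 (0.56, adjusted p = 0.0965) and SDF2L1 (0.32, adjusted p = 0.291) no longer passed. What made the libraries differ in GC content was not tested.

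**Figure D4:**
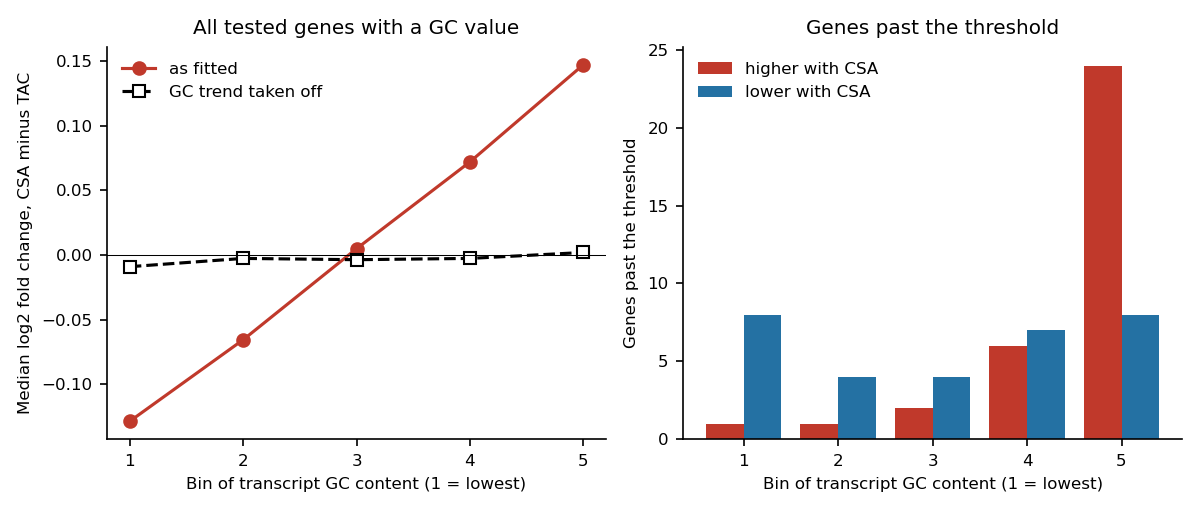
Left, median log2 fold change of CSA minus TAC (y axis) in each of 5 bins of transcript GC content (x axis, 1 = lowest), as fitted (red) and with each library's GC trend taken off (open squares). Right, number of genes past the threshold in each bin, higher (red) or lower (blue) with CSA; 24 of the 34 higher genes lie in the highest bin.

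The drug targets themselves did not differ detectably. PPIA, the main cyclophilin, had 1084, 1107 and 864 CPM with CSA and 1089, 1131 and 1265 CPM with TAC (−0.19, SE 0.10, 95% interval −0.41 to 0.03, adjusted p = 0.388). FKBP1A had 309, 310 and 235 CPM with CSA and 294, 304 and 313 CPM with TAC (−0.10, SE 0.09, 95% interval −0.29 to 0.09, adjusted p = 0.607). In both genes CSA replicate 3 was the low library and the groups overlapped. For PPP3CA, the catalytic subunit of calcineurin, the 95% interval was −0.13 to 0.12 log2 units. PPP3R1, the regulatory subunit, differed by −0.19 (SE 0.07, adjusted p = 0.22) and CABIN1, which binds and inhibits calcineurin, by 0.15 (SE 0.07, adjusted p = 0.344). FKBP5, a cochaperone of the glucocorticoid receptor, differed by −0.13 (SE 0.07, adjusted p = 0.403). FKBP10 and PPIB, which fold collagen, differed by 0.17 (SE 0.06, adjusted p = 0.237) and 0.15 (SE 0.08, adjusted p = 0.353). By edgeR and by DESeq2 no gene passed among 26 calcineurin and NFAT genes, 16 FK506-binding proteins and 16 cyclophilins. An unadjusted p under 0.05 was seen in 3, 1 and 1 of them, against 15.9% of all genes. The medians were −0.04, 0.06 and −0.11.

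RCAN1, the calcineurin inhibitor that NFAT induces and a common readout of calcineurin activity, had 159, 154 and 151 CPM with CSA and 173, 159 and 166 CPM with TAC. The means were 169 ± 14.8 CPM with VCS and 160 ± 7.62 CPM with DMSO, and no group stood apart from the others. The CSA minus TAC difference was −0.10 (SE 0.07, 95% interval −0.26 to 0.05, adjusted p = 0.527). NFATC1 was low, at 0.697 ± 0.172 CPM with CSA and 0.723 ± 0.230 CPM with TAC, and its 95% interval, −0.72 to 0.64, leaves a difference of that size undetectable at this depth. Of 29 listed NFAT targets 21 were tested. By edgeR VCAM1 was called higher and IL11 and F3 lower (0.172% and 0.157% of all genes were). DESeq2 called 2 higher and 2 lower (3.68% and 1.84% of the genes it tested). An edgeR unadjusted p under 0.05 was seen in 5 of the 21 (15.9% of all genes). The median was 0.06, or −0.01 after the GC step. Lymphocyte targets such as IL2, IL4 and FASLG did not pass the count filter.

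Slit diaphragm and foot process genes held no call by edgeR. Of 23 slit diaphragm and foot process genes 17 had a difference above 0 (median 0.16), 8 had an unadjusted p under 0.05 (15.9% of all genes did), and DESeq2 called 1 higher (3.68% of the genes it tested). INF2, a formin mutated in familial glomerulosclerosis, had 164, 169 and 179 CPM with CSA and 138, 140 and 137 CPM with TAC. The groups did not overlap, but the difference missed the threshold (0.30, SE 0.06, adjusted p = 0.0767), and it was 0.13 after the GC step. SYNPO, the actin-binding protein synaptopodin that calcineurin is known to dephosphorylate, had 58.1, 54.3 and 67.3 CPM with CSA and 61.0, 57.0 and 49.8 CPM with TAC, with overlapping groups (0.10, SE 0.11, 95% interval −0.13 to 0.34, adjusted p = 0.69). Its difference changed sign without CSA replicate 3, to −0.06. CD2AP, which anchors nephrin to actin, differed by −0.22 (SE 0.09, adjusted p = 0.248), and WT1, a transcription factor of the podocyte lineage, by −0.49 (SE 0.32, adjusted p = 0.488). PAX8 differed by 0.34 (SE 0.09, adjusted p = 0.117), and LMX1B, another lineage factor at under 1 CPM, by −1.02 (SE 0.57, adjusted p = 0.414).

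Glomerular basement membrane genes were above 0 in 15 of 18 cases (median 0.18) and interstitial matrix genes in 26 of 30 (median 0.20), with no call by edgeR. At an unadjusted p under 0.05 there were 5 of 18 and 4 of 30 members, against 15.9% of all genes, and DESeq2 called 4 and 2 higher, against 3.68%. AGRN, the proteoglycan agrin, had 1629, 1657 and 2103 CPM with CSA and 1418, 1371 and 1145 CPM with TAC (0.46, SE 0.12, adjusted p = 0.117). LAMA5, the laminin chain of the mature membrane, had 98.3, 117 and 178 CPM with CSA and 84.2, 93.6 and 92.2 CPM with TAC (0.51, SE 0.14, adjusted p = 0.116). In both genes CSA replicate 3 was by far the highest library. COL6A1 and COL6A2, chains of collagen VI, differed by 0.36 (SE 0.09, adjusted p = 0.111) and 0.35 (SE 0.08, adjusted p = 0.0862). Without the 4 libraries numbered 3 the list medians were −0.07 and −0.01. The listed mesangial and fibroblast markers summed to 4428, 4878 and 6161 CPM in CSA replicates 1 to 3 and to 4410 ± 142 CPM with TAC (SD, n = 3), so CSA replicate 3 was highest there as well. ITGA8, which defines mesangial cells, had at most 3 counts in a CSA or TAC library. Other markers of this kind were expressed, PDGFRB at 706 to 942 counts with CSA and 732 to 849 with TAC. LUM had 2381 to 4047 counts with CSA and 2260 to 3464 with TAC. The part of these markers was not tested.

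Cell cycle genes leaned the other way. Of 45 tested, 41 had a difference below 0 (median −0.13, or −0.23 to −0.08 over the other settings), none passed in edgeR, 15 had an unadjusted p under 0.05 (15.9% of all genes did), and DESeq2 called 9 lower (1.84% of the genes it tested). CDK1, the kinase that starts mitosis, had 97.8, 77.6 and 80.0 CPM with CSA and 118, 107 and 124 CPM with TAC (−0.45, SE 0.10, adjusted p = 0.0767), and the groups were separate. CENPE, a kinetochore motor, averaged 47.2 ± 4.43 CPM with CSA and 63.1 ± 3.35 CPM with TAC (−0.42, SE 0.08, adjusted p = 0.0603). Against DMSO the list had a median of 0.01 with CSA and 0.21 with TAC. Interferon-stimulated genes had a median of −0.10, with 31 of 40 below 0 and none called by edgeR. At an unadjusted p under 0.05 there were 6 of 40, a share near the 15.9% of all genes. DESeq2 called 1 higher (3.68% of the genes it tested). IFI44L, the clearest of those below 0, differed by −0.30 (SE 0.09, adjusted p = 0.149). Among 21 YAP and TEAD targets edgeR called ANKRD1, IGFBP3 and F3 lower (0.157% of all genes were) and none higher. DESeq2 called 3 lower and 1 higher (1.84% and 3.68% of the genes it tested), but 12 members lay above 0 (median 0.06). Of 18 glucocorticoid receptor targets 14 lay below 0 (median −0.15), with no call by edgeR. An unadjusted p under 0.05 was seen in 6 of them (15.9% of all genes), and DESeq2 called 1 lower (1.84% of the genes it tested). The phosphatase DUSP1 differed by −0.20 (SE 0.07, adjusted p = 0.212).

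**Figure D5:**
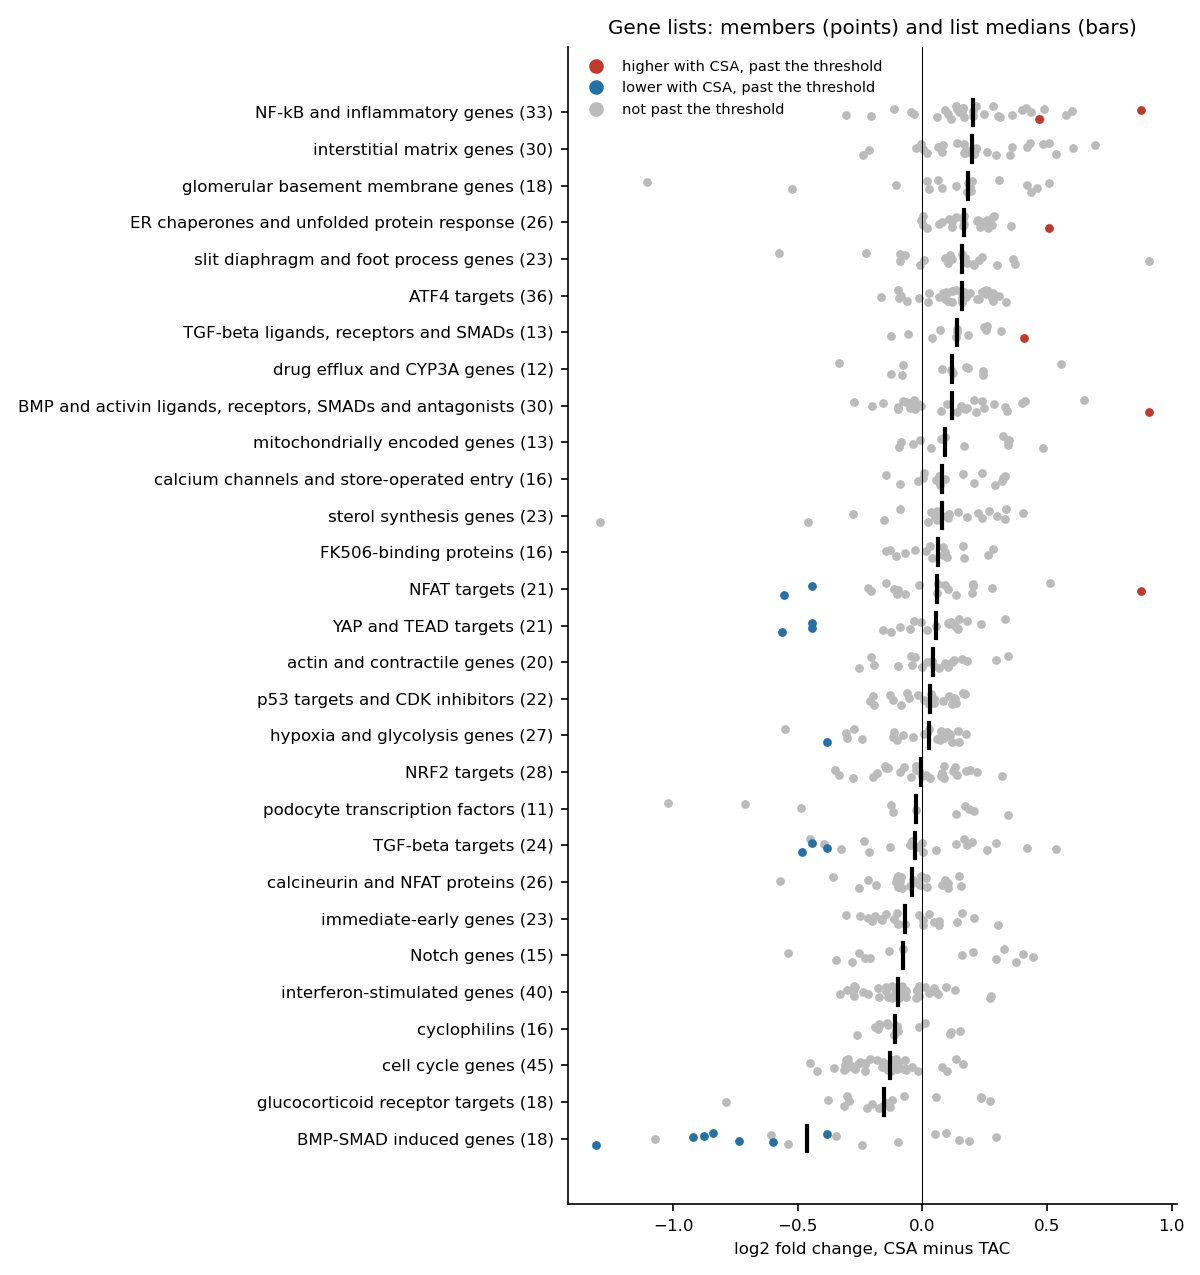
Log2 fold change of CSA minus TAC (x axis) for the tested members of each gene list (rows, with the number tested); points are genes, red or blue where past the threshold, and black bars are list medians. The BMP-SMAD list has the lowest median, −0.46, and 7 blue points, while most other lists hold no coloured point.

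Some genes stood far from DMSO with both drugs and did not separate them; they were named after their values were seen. SFTPA1, a surfactant protein, had 9, 7 and 4 counts with CSA and 12, 4 and 1 with TAC, against 140, 99 and 117 with DMSO. The keratin KRT5 had 45, 62 and 32 counts with CSA and 80, 40 and 39 with TAC, against 424, 179 and 166 with DMSO. H2BC26, a histone H2B gene, had 24, 35 and 34 counts with CSA and 29, 23 and 30 with TAC, against 0, 2 and 0 with DMSO. CSA and TAC libraries overlapped in each of the 3 genes, and the CSA minus TAC differences were 0.26 (SE 0.54, adjusted p = 0.863), −0.14 (SE 0.32, adjusted p = 0.883) and 0.16 (SE 0.41, adjusted p = 0.898). With VCS, SFTPA1 had 148, 105 and 59 counts and H2BC26 had 1, 1 and 3, near the DMSO values. Against DMSO, 6 genes passed with CSA (0.0303%; 1 higher, 0.00505%, and 5 lower, 0.0253%) and 41 with TAC (0.207%; 23 higher, 0.116%, and 18 lower, 0.091%), and these comparisons share the DMSO libraries. The listed airway and surfactant markers summed to 28.8 ± 5.75 CPM with CSA and 30.03 ± 3.71 CPM with TAC (exact permutation p = 0.8).

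ENSG00000196656, a transcribed processed pseudogene on the minus strand at chr4:113214046-113217170, inside ANK2 on the opposite strand, had the largest fitted difference among the called genes. It had 304, 235 and 195 counts with CSA and 0, 1 and 0 with TAC. With VCS it had 0 in each library and with DMSO 63, 244 and 409. The ratio of summed counts, 734 with CSA over 1 with TAC, was 730 (95% exact interval 131 to 28900, counting error only). The TAC and VCS libraries were at or near 0, whereas every CSA and DMSO library held counts. Reads of a processed copy can be divided with its parent gene, so the value is uncertain.

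The intervals set how far CSA and TAC can be called alike. The median SE of the CSA minus TAC difference was 0.12 log2 units. For 11094 genes (56.1%) the whole 95% interval lay within 0.5 log2 units of 0, which is 1.41-fold, and for 15514 (78.4%) within 1 unit, or 2-fold. For the remaining genes the interval reached a difference of 2-fold or more, and among them are called genes such as ID1, whose interval lay wholly below 0. Of the 65 called genes, 32 (49.2%) overlap another annotated gene, against 67.8% of all tested genes, and reads in such stretches may be shared, since the strand setting of the counting is not stated.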

How the data were processed

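Poly(A) RNA of podocytes was sequenced in 12 libraries with in-line UMIs and ERCC spike-ins, per the labels' protocols. The submitters' processing notes name Salmon and GRCh38; versions, annotation release, strand setting and UMI collapsing are not given in the sources used here. The deposited table holds whole numbers per gene, taken to be expected counts (Salmon estimates) that the authors rounded, with no normalization seen. The 95% intervals of differences come from edgeR's SE and cover the spread between libraries; the exact interval of a ratio of counts covers counting error only. No spike-in rows were analysed here.

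Genes were filtered with filterByExpr of edgeR 4.0.16 (R 4.3.3; minimum count 10) and scaled by TMM. All 12 libraries were fitted with edgeR's quasi-likelihood model on group and replicate number, leaving 6 residual degrees of freedom, and CSA minus TAC was tested two-sided at a Benjamini-Hochberg adjusted p of 0.05. Levels are CPM with the SD over 3 libraries; differences are log2 units with SE. The fit was also run on simulated counts in which all groups shared a replicate effect, so that run cannot show whether the block is warranted. Alternatives were no block, RLE scaling, no filter, DESeq2 1.42.0, only the groups compared, robust estimation and libraries left out; a GC correction in 20 bins was added after seeing the data.

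Named genes were RCAN1, PPP3CA, PPIA, FKBP1A, FKBP5, NFATC1, SYNPO, WT1, ID1, ID3 and SMAD6. Up to 15 called genes per direction by smallest p were added, with a symbol, a mean log2 CPM of at least 1 and the same sign in 3 same-numbered pairs, and up to 4 members of each of 37 lists. The comparison, members and lists were chosen with earlier results of these data known. Symbols were found for 62252 identifiers; positions and GC content came from GENCODE 29 for 18900 tested genes, and promoters from RefSeq. Values of some genes are not reported here.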

Additional observations from a re-analysis of the deposited data

How the results depend on the processing

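Against the 65 genes of CSA against TAC, 6 passed with no replicate block, 784 with no filter on low counts, 542 with DESeq2, 1 when only the libraries of both groups were fitted, with or without the block, 29 with the replicate block and GC correction and 42 without the 4 libraries numbered 3; leaving out 1 library at a time gave 5 to 252. RLE scaling gave 67 and robust estimation 78. For CSA against DMSO the count was 6, with 2 without the block, 664 with no filter, 61 with DESeq2, and 3 with and 2 without the block when only those groups were fitted; leaving out 1 library gave 1 to 8. For TAC against DMSO it was 41, with 7 without the block, 606 with no filter, 195 with DESeq2, 64 with robust estimation, and 1359 with and 1 without the block when only those groups were fitted; leaving out 1 library gave 4 to 259. The cause of these shifts was not tested. The labels do not say what a replicate number marks. Deviations of same-numbered CSA and TAC libraries from their group means correlated at 0.157, 0.007 and 0.185 over genes. Those of differently numbered libraries correlated at −0.175 to 0.042, so the pairing of number 2 is not seen in the data. Calls lost without the block rest on it, and whether the block is warranted was not tested. Sign changes among named genes were confined to uncalled ones: PPP3CA (0.0781 with GC correction), FKBP1A (0.0491 without the libraries numbered 3), SYNPO (−0.0066 with GC correction, −0.0695 without the libraries numbered 3) and SFTPA2 (0.0807 without the libraries numbered 3). With 1 library left out, PPP3CA ran from −0.0173 to 0.0086, NFATC1 from −0.28 to 0.25, FKBP1A from −0.17 to 0.0094, SYNPO from −0.0613 to 0.20, SFTPA1 from −0.10 to 1.15, SFTPA2 from −0.42 to 0.20, KRT5 from −0.57 to 0.29 and H2BC26 from −0.11 to 0.45. No setting moved the median of all genes by 0.01 log2 units or more.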
